A study of Mus musculus with 2 samples.

Results

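The chitinase-like genes Chil1, Chil3 and Chil5 were examined in splenic neutrophils, monocytes and dendritic cells (DCs) of a mouse with sickle cell disease (SCD) and a non-sickling control mouse called wild-type. They are 3 of 26124 genes in the count matrices, taken by symbol. They had been picked with earlier results of these cells in view, among them a high SCD over wild-type ratio of Chil1 in monocytes and of Chil3 in conventional DCs. Their levels are therefore given as a description, without a test. Each group was 1 spleen suspension from mice aged 12 to 16 weeks, depleted of other cells on magnetic beads to enrich DCs and run as a 10x Genomics 3′ single-cell library. The SCD mouse carried Hbatm1Paz, Hbbtm1Tow and the sickle transgene Tg(HBA-HBBs)41Paz in homozygous form (Berkeley model). The control was likewise homozygous for Hbatm1Paz, but heterozygous for Hbbtm1Tow and hemizygous for the transgene, so it also carried human hemoglobin genes. The strain has a mixed genetic background, no treatment was given, and with 1 mouse per genotype a difference between mice cannot be told apart from a difference between genotypes.

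Chitinase-like proteins have the fold of the glycosyl hydrolase 18 chitinases but no chitinase activity, and bind sugars instead. Chil3 encodes Ym1, a secreted protein of neutrophil precursors, bone marrow monocytes and alternatively activated macrophages that can crystallise in the airways. Chil1 encodes BRP-39, the mouse counterpart of human YKL-40, which is stored in the specific granules of neutrophils and is known as a marker of inflammation. Chil5 (also called Bclp2) is less well characterised. In neutrophils, granule proteins are made in waves. Azurophil granule enzymes such as elastase come first, while the precursors still divide, then specific granule proteins such as lactoferrin, then gelatinase granule proteins, and mature cells turn on cytokine and chemokine receptor genes.

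In the GENCODE annotation of GRCm38, Chil1 (ENSMUSG00000064246) lies on chromosome 1 from 134182176 to 134190181 on the plus strand, 30635 bp downstream of Chit1, which encodes the active chitinase chitotriosidase. Chil3 (ENSMUSG00000040809; chromosome 3, 106147554 to 106167564) and Chil5 (ENSMUSG00000043873; chromosome 3, 106016919 to 106032814) lie on the minus strand, with Chia1, the acidic mammalian chitinase gene, as the only protein-coding gene between them. Chil4, which encodes the close relative Ym2, lies 33925 bp from Chil3 on the same strand. The bases before the start of each gene are printed here (RefSeq, GRCm38.p6, 5′ to 3′ on the gene's strand), because the genes differed in when and where they were transcribed and because Chil3 and Chil4 shared most of this sequence. They come from chr1:134181906-134182155 (Chil1), chr3:106167565-106167814 (Chil3), chr3:106032950-106033145 (Chil5) and chr3:106219508-106219729 (Chil4). Capitals mark matches on either strand to the core motifs of C/EBP (TTGCNNAA), PU.1 (GAGGAA) and STAT (TTCNNNGAA) factors.
Chil1: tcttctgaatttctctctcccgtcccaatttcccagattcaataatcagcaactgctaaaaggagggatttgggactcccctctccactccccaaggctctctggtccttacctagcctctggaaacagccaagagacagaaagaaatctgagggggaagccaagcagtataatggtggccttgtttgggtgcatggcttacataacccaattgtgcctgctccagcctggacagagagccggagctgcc
Chil3: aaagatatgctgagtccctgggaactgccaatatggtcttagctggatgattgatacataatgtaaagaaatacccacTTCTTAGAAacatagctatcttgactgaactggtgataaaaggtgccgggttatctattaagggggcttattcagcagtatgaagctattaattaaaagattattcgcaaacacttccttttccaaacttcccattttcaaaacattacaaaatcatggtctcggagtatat
Chil5: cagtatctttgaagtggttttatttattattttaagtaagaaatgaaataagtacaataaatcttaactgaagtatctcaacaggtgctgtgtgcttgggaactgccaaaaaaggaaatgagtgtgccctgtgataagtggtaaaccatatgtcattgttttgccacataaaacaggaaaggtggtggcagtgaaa
Chil4: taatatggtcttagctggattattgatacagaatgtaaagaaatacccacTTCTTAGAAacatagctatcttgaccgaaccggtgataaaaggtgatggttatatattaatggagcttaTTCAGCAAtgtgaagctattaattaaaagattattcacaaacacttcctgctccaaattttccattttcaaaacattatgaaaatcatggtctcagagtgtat

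Of the 3 members, only Chil3 held a match, TTCTTAGAA for the STAT motif, 172 to 164 bases before the start. The same STAT match was present before Chil4, together with TTCAGCAA, which is a C/EBP match read on the other strand. Across 27025 RefSeq promoter windows (250 bases before to 50 after a start), 10.8% held the C/EBP motif, 28.3% the PU.1 motif and 8.47% the STAT motif. The windows of the 4 genes were searched over this same length, and only the part before the start is printed. The printed part was 250 bases for Chil1 and Chil3, 196 for Chil5 and 222 for Chil4. The stretches before Chil3 and Chil4 had the same base at 201 of 221 aligned positions, and those before Chil3 and Chil5 at 117 of 193. A match is a run of letters and was not tested as a binding site.

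After the study's filters on cells, 9423 wild-type and 10635 SCD cells remained, with a median of 4884 and 8282 unique molecular identifiers (UMIs, each a tagged transcript). Levels are UMIs of a gene per 1000000 UMIs of the cells summed (CPM), given as wild-type then SCD unless named, and all intervals in square brackets are exact 95% intervals that cover counting error only. Before any result, 22 of the kept cell barcodes occurred in both libraries. The neutrophils (4350 wild-type and 7083 SCD cells) fell into 7 clusters, built without the members. These are ordered here by early genes (azurophil and specific granule) over genes of late neutrophils such as Csf3r, Cxcr2 and Il1b. They are called by their leading genes: Elane (68 and 726 cells), Orm1 (112 and 835), Ltf (116 and 990), Mmp8 (188 and 1548), Retnlg (155 and 1855), Ifitm1 (61 and 658) and Il1b (3650 and 471). The Elane cluster was the dividing one, with 5377 CPM of 18 cell cycle genes against 73.1 to 458 in the others. The Il1b cluster made up 83.9% of wild-type and 6.65% of SCD neutrophils, so the 2 libraries held very different mixes of stages.

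Chil3 was an early neutrophil transcript with little left in late cells. In wild-type cells its level was 11725 CPM [11561, 11891] in the Elane cluster, 8805 in the Orm1, 5146 in the Ltf and 2152 in the Mmp8 cluster, then 76.3 in the Retnlg, 46.5 in the Ifitm1 and 20.4 in the Il1b cluster. In SCD cells it was 8728 [8682, 8775], 7673, 4441, 1568, 127, 112 and 136 CPM over the same clusters. The order from Elane to Retnlg was the same in both libraries and no neighbouring intervals overlapped among these 5 clusters, whereas the intervals of the last 3 clusters overlapped with each other in SCD. The largest step, as a ratio, lay between the Mmp8 and the Retnlg cluster. An Elane cell with Chil3 held a median of 267 UMIs of it in wild-type and 184 in SCD, and a Retnlg cell with Chil3 held a median of 1 in each. After each cell was thinned to 1000 UMIs, 98.5% of wild-type and 95.9% [94.1, 97.2] of SCD Elane cells kept a Chil3 UMI, against 1.89% and 11.4% of Il1b cells (4.47% and 24.6% unthinned).

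Chil1 was spread over the middle of the same course. Its wild-type level was 253 CPM [229, 278] in the Elane cluster, 437, 423, 438 and 415 in the Orm1, Ltf, Mmp8 and Retnlg clusters, 206 [140, 292] in the Ifitm1 and 156 [148, 165] in the Il1b cluster. The SCD levels were 334 [325, 343], 440, 434, 454, 431, 336 [308, 365] and 242 [212, 274]. The 4 clusters from Orm1 to Retnlg did not differ beyond their counting intervals in either library. Cells of the Retnlg cluster thus held little Chil3 while Chil1 was at its plateau, and Chil1 was still detected in 24.1% of wild-type Il1b cells.

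Chil5 formed a narrow peak. It was at 1.81 CPM [0.374, 5.30] in wild-type Elane cells (3 UMIs), 10.9 in the Orm1, 58.5 in the Ltf, 76.0 in the Mmp8, 48.8 [34.7, 66.7] in the Retnlg, 6.64 in the Ifitm1 and 0.907 in the Il1b cluster. The SCD values were 2.71 [1.95, 3.66], 15.9, 56.3, 82.0 [76.9, 87.3], 35.8 [31.9, 39.9] and 4.83 CPM, and 3 UMIs in the Il1b cluster. The Mmp8 cluster was highest in both libraries, and in SCD its interval overlapped with that of no other cluster. In wild-type it overlapped with those of the Ltf and Retnlg clusters. Chil5 was sparse even there, with a UMI in 42.0% of wild-type and 43.5% of SCD cells before thinning.

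**Figure D1:**
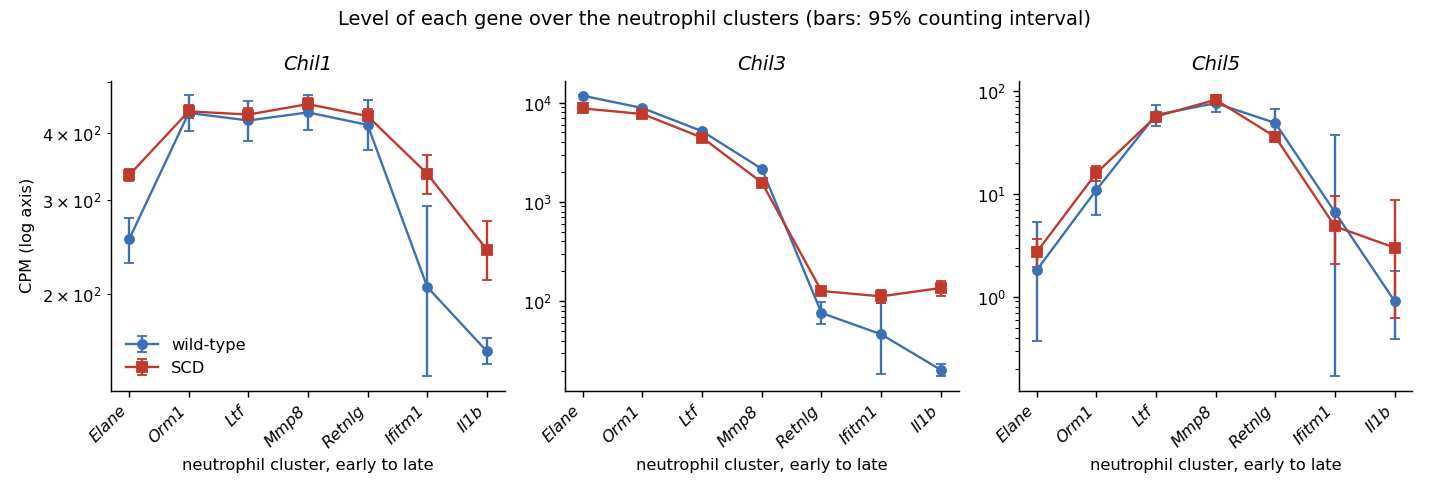
Level of each gene in CPM (vertical log axis) in the 7 neutrophil clusters, ordered from early to late (horizontal axis), with 95% counting intervals as bars; blue circles are wild-type and red squares SCD. Chil3 is highest in the Elane cluster (11725 and 8728 CPM), Chil1 is level from Orm1 to Retnlg, and Chil5 peaks in the Mmp8 cluster (76.0 and 82.0 CPM).

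Binning single neutrophils by their specific granule over late UMIs, with no clusters, gave like courses for Chil3 and Chil5. From the latest to the earliest of 6 bins, Chil3 was at 19.9, 22.3, 68.6, 1185, 3907 and 9612 CPM in wild-type and at 128, 92.9, 134, 572, 3132 and 7908 CPM in SCD. Chil5 reached 68.9 and 68.7 CPM in its highest bins and was at 14.1 and 19.2 CPM in the earliest. Chil1 was between 357 and 447 CPM in the 4 earlier wild-type bins and at 143 CPM in the latest. In SCD it was at 250 CPM in the latest bin and between 372 and 446 CPM in the others, and the earliest bin (405 CPM [398, 413]) was not below the next (413 CPM [403, 424]) beyond their intervals, unlike the Elane cluster beside the Orm1 cluster.

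Summed over all neutrophils, each member was higher in SCD. Chil1 was at 255 and 406 CPM (ratio 1.59 [1.54, 1.64]), Chil3 at 2693 and 4677 CPM (1.74 [1.72, 1.75]) and Chil5 at 16.4 and 35.3 CPM (2.15 [1.89, 2.45]). None of the 3 reached a log2 ratio of 1 with 5 CPM added to each value, and Chil5 did not pass the minimum level of 50 CPM. All 3 log2 ratios exceeded 1 under median-of-ratios scaling (1.06, 1.20 and 1.27 for Chil1, Chil3 and Chil5) and as a mean of per-cell CPM (1.07, 2.09 and 1.75). Of 2497 genes that passed, 1.76% were at 1 or more and 19.8% at -1 or less, and their median log2 ratio was -0.39. Within clusters the picture differed between the genes. Chil3 was lower in SCD in each of the 4 clusters that held nearly all of it, with ratios of 0.744 [0.733, 0.756] in the Elane, 0.871 [0.855, 0.888] in the Orm1, 0.863 [0.841, 0.886] in the Ltf and 0.728 [0.702, 0.756] in the Mmp8 cluster. The corresponding log2 ratios were -0.43, -0.20, -0.21 and -0.46, beside medians of -0.08, -0.07, -0.07 and -0.07 over all genes expressed in these clusters, and those of the Elane and Mmp8 clusters lay below the 10th percentile of genes (-0.35 and -0.32). When both libraries were given the wild-type mix of clusters, the Chil3 ratio over all neutrophils was 0.826, and with the SCD mix it was 0.795, so its direction turned. Chil1 was at ratios of 1.01 to 1.04 in the 4 plateau clusters, with intervals that held 1, and higher in SCD in the Elane (1.32 [1.20, 1.46]), Ifitm1 (1.63 [1.13, 2.42]) and Il1b (1.55 [1.34, 1.77]) clusters. These log2 ratios of 0.40, 0.69 and 0.61 lay above the 90th percentile of genes (0.22, 0.54 and 0.40). At Leiden resolution 2 the late neutrophil clusters differed in library mix. They ranged from 1276 wild-type and 36 SCD cells (log2 early over late genes -2.53) to 49 and 935 cells (-0.86). No level within those clusters was computed, so a difference in stage inside a cluster was not tested for any member. With 1 mix of clusters the Chil1 ratio was 1.24 or 1.09. The Chil5 ratio was 1.09 or 0.998 with 1 mix, and its interval held 1 in each of the 7 clusters.

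In the last 3 clusters, where little Chil3 was left, its ratio was above 1: 1.66 [1.29, 2.19] in the Retnlg, 2.40 [1.14, 6.06] in the Ifitm1 and 6.66 [5.29, 8.37] in the Il1b cluster. These levels are set beside those of erythroid cells, which are not known to transcribe Chil3 and held 12.3 CPM [3.99, 28.7] in wild-type and 106 CPM [65.8, 162] in SCD. The SCD intervals of all 3 clusters overlapped with that of SCD erythroid cells. In wild-type those of the Ifitm1 and Il1b clusters did, and that of the Retnlg cluster [58.4, 98.0] did not. Plasmacytoid DCs of the Siglech cluster were lower, at 6.95 and 51.9 CPM with upper bounds of 9.17 and 59.6 CPM, and the intervals of all 3 late clusters lay above theirs in both libraries. Their ratio was 7.46 [5.45, 10.4], beside the 6.66 of the Il1b cluster. The part of free RNA in the late neutrophil levels was not tested.

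**Figure D2:**
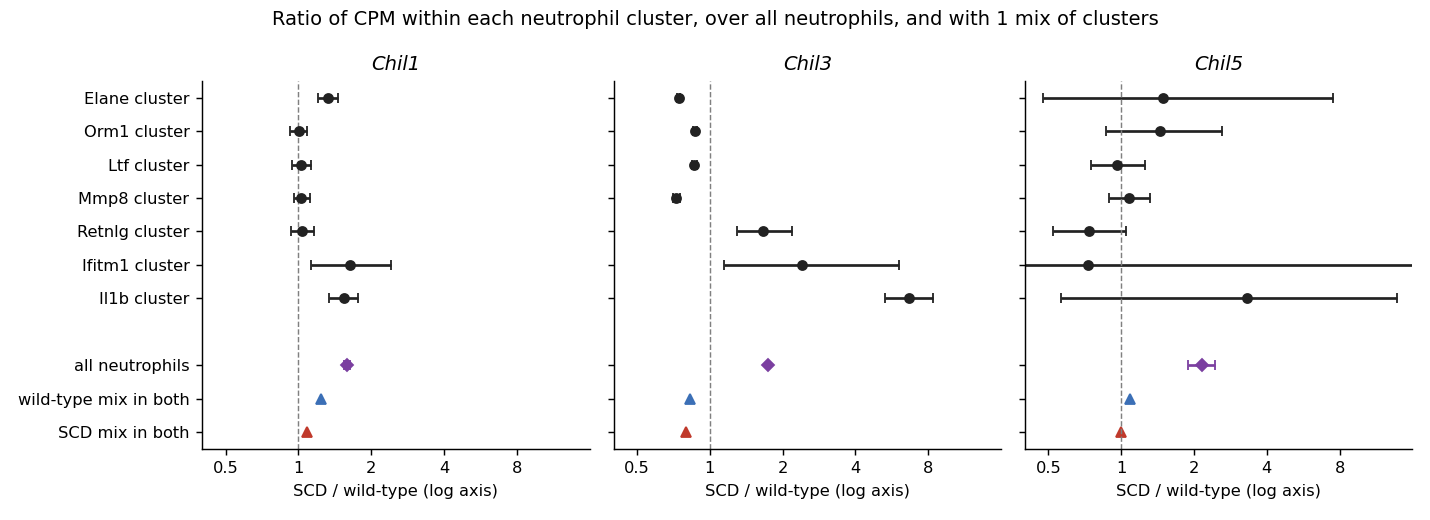
Ratio of CPM, SCD over wild-type (horizontal log axis), within each neutrophil cluster, over all neutrophils (diamond) and with the wild-type or SCD mix of clusters applied to both libraries (triangles); bars are 95% counting intervals, cut at the panel edge for Chil5 in the Ifitm1 cluster. Chil3 stands at 1.74 over all neutrophils but at 0.728 to 0.871 in the 4 clusters from Elane to Mmp8.

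Of the other genes of the glycosyl hydrolase 18 family, none of 7 passed the minimum level in neutrophils, monocytes or conventional DCs as a whole, and Chit1 stood out within a cluster. In Elane cells Chit1 was at 9.07 CPM (15 UMIs) in wild-type and 52.7 CPM (817 UMIs) in SCD, a ratio of 5.81 [3.50, 10.4]. In Orm1 cells it was at 2.05 and 17.7 CPM (8.64 [2.91, 42.3]), and in the Il1b cluster no UMI was seen in either library. Chit1 was singled out after its values were seen. Chil4 had 4 wild-type and 24 SCD UMIs in all neutrophils (0.255 and 0.408 CPM), while Chil3, which shares most of its upstream sequence, had 42239 and 275268. In the last 500 bases of the longest annotated Chil3 transcript, 36 of the 410 windows of 91 bases (8.78%) also occurred in a Chil4 transcript, so reads from the other windows were not shared with that gene. Ctbs and Chid1, which encode a lysosomal chitobiase and a chitinase-domain protein, were between 3.76 and 35.9 CPM in these classes, Ovgp1, the oviduct glycoprotein gene, was at 10.1 and 4.64 CPM in neutrophils, and Chil6 and Chia1 had at most 1 UMI in any of them.

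Monocytes were 543 wild-type and 908 SCD cells in 1 cluster led by Fn1, F13a1, Vcan and Ccr2. Leiden resolution 2 in place of 1 divided cells of this kind largely by library. Clusters led by Fn1 and F13a1 then held 39 wild-type and 765 SCD cells, or 551 and 149. The monocyte ratios below are over all monocytes, and no level within either of these clusters was computed. Because RNA freed from neutrophils can enter any droplet, each level was set against the UMIs expected from it, given the class's UMIs of 8 neutrophil genes (Ngp, Camp, Ltf, Lcn2, Retnlg, Wfdc21, S100a8 and S100a9) and the ratio of the member to these genes in neutrophils of the same library. All 8 panel genes were higher in SCD monocytes, and their sum was 3292 CPM in wild-type and 8163 CPM in SCD. S100a8 and S100a9 are also transcribed by monocytes, which raises the expectation.

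Chil3 was a monocyte transcript in both mice. Its level was 1213 CPM [1185, 1242] in wild-type and 1094 CPM [1075, 1114] in SCD, a ratio of 0.902 [0.876, 0.929]. There were 7169 wild-type UMIs where 180 were expected (39.7 times) and 12364 SCD UMIs where 967 were expected (12.8 times), and over each panel gene alone the lowest ratio was 26.4 and 4.88. Chil3 was at 12.8 and 6.25 times with the neutrophil cluster richest in it as the source. Without called doublets it was at 135 and 16.1 times. It was uneven between cells: after thinning, 50.7% [46.4, 55.0] of wild-type and 46.6% [43.3, 49.9] of SCD monocytes had a UMI (78.6% and 84.8% unthinned), and the richest 5% of cells held 23.3% and 23.0% of all Chil3 UMIs. In SCD plasmacytoid DCs of the Siglech cluster the thinned share was 5.35%, and in wild-type ones 0.613%.

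Chil1 was low in wild-type monocytes and higher in SCD monocytes. It had 26 UMIs in 14 of 543 wild-type cells (4.40 CPM [2.87, 6.45]) and 912 UMIs in 430 of 908 SCD cells (80.7 CPM [75.6, 86.1]), a ratio of 18.3 [12.4, 28.2]. Of 3225 genes that passed the minimum level in monocytes, 0.961% had a log2 ratio of at least 1 and 1.74% of at most -1; Chil1 was at 3.19 and Chil3 at -0.15, and Chil1 had been chosen on this contrast. Chil1 passed the minimum level only through SCD, where it is high, so nothing is read from its place among these genes. Without called doublets Chil1 was at a log2 ratio of 3.75. The 26 wild-type UMIs were 1.52 [0.992, 2.23] times the 17.1 expected from neutrophil RNA, with a lowest ratio of 1.01 over single panel genes. The 912 SCD UMIs were 10.9 [10.2, 11.6] times the 84.0 expected, with a lowest ratio of 4.15 (Retnlg), and 6.82 when the neutrophil cluster richest in Chil1 was taken as the source. Among the 862 SCD monocytes with under 1% of their UMIs from the panel, Chil1 was at 75.7 CPM [70.5, 81.1], 22.4 times the expectation, and the 515 such wild-type monocytes were at 1.09 CPM [0.401, 2.38]. After thinning, a Chil1 UMI was left in 7.27% [5.67, 9.16] of SCD monocytes and in 0 of 542 wild-type monocytes. The share depends on the depth: it was 12.9% and 0.557% at 2000 UMIs, and 47.4% and 2.58% without thinning. At 1000 UMIs the share was 0.668% in SCD plasmacytoid DCs of the Siglech cluster, with a median of 8744 UMIs against 12130 in the monocytes. The SCD level in monocytes was below the 406 CPM of neutrophils. Of the 66 SCD monocytes that kept a Chil1 UMI after thinning to 1000 UMIs, 60.6% also kept a Chil3 UMI, against 46.6% of all.

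Dividing cells were rare among the cells named monocytes at the clustering resolution used. Resting cells, with at most 2 cell cycle UMIs after thinning, were 542 wild-type and 879 SCD cells and held Chil3 at 1213 and 1101 CPM and Chil1 at 4.40 and 82.3 CPM. Without called doublets, resting Chil1 was at 1.25 CPM in wild-type and 80.7 CPM in SCD. Dividing cells, with at least 5, numbered 0 and 6. The 6 SCD cells had 63 Chil3 UMIs (794 CPM [610, 1015]) and 2 Chil1 UMIs, too few for a level. A separate cluster held dividing cells with monocyte genes: led by F13a1, Fn1 and Prtn3, with Mpo and Ctsg, it had 6195 CPM of cell cycle genes and was given no cell type name, since genes of another class were among its leading ones. Chil3 was at 2106 CPM [2004, 2212] in its 44 wild-type cells and at 831 CPM [810, 852] in its 365 SCD cells, a ratio of 0.394 [0.373, 0.417], and 132 and 16.4 times the expectation. The wild-type UMIs were held by 26 cells with a median of 40.5, the SCD ones by 307 cells with a median of 9. Chil1 had 2 wild-type UMIs (2.63 CPM) and 291 SCD UMIs (40.8 CPM [36.2, 45.7]), 9.24 times the expectation. At Leiden resolution 2 in place of 1, a cluster led by F13a1 and Fn1 (44 wild-type and 372 SCD cells, 6159 CPM of cell cycle genes) was named monocyte.

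Nonclassical monocytes, led by Ace, Nr4a1 and Cd300e, held less Chil3 than the monocytes above, 132 CPM [118, 146] in 394 wild-type and 120 CPM [83.3, 166] in 48 SCD cells, with intervals that overlapped. This was 2.75 and 2.08 times the expectation, and 0.886 and 1.02 times with the neutrophil cluster richest in Chil3 as the source. Chil1 had 6 wild-type UMIs (2.34 CPM) and 41 SCD UMIs (140 CPM [100, 190]) from 14 cells, 28.1 times the expectation. The highest SCD cell held 13 of these 41 UMIs. Chil5 was close to absent from monocytes, with 1 wild-type and 10 SCD UMIs, which were 0.907 and 1.37 times the expectation, and had no UMI in nonclassical monocytes.

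**Figure D3:**
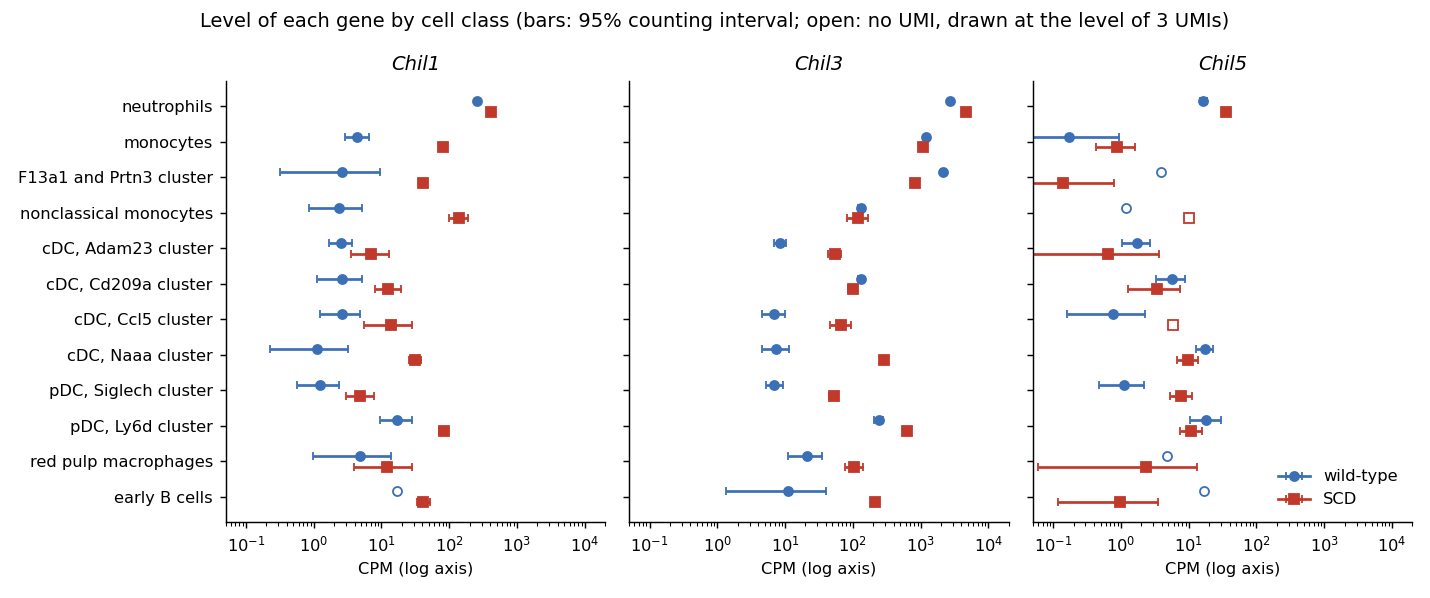
Level of each gene in CPM (horizontal log axis) by cell class, with 95% counting intervals as bars, cut at the left edge; blue circles are wild-type, red squares SCD, and open symbols mark a class without a UMI, drawn at the level of 3 UMIs. Chil3 is at 1213 and 1094 CPM in monocytes, whereas Chil1 is at 4.40 and 80.7 CPM.

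In conventional DCs (2547 wild-type and 703 SCD cells), Chil3 was at 25.5 CPM [23.4, 27.7] in wild-type and 175 CPM [166, 185] in SCD, a ratio of 6.87 [6.21, 7.60], the contrast it had been chosen on. Of 3434 genes that passed the minimum level, 1.81% were at a log2 ratio of at least 1 and 3.70% at -1 or less, and Chil3 was at 2.56. It passed only through SCD, where it is high, so nothing is read from that place. The panel moved with it: all 8 genes were higher in SCD and their sum was 1351 CPM in wild-type and 16396 CPM in SCD. The 1297 Chil3 UMIs of SCD conventional DCs were 1.02 [0.963, 1.07] times the 1274 expected from neutrophil RNA, with 0.768 to 1.21 over single panel genes. The 558 wild-type UMIs were 2.03 [1.87, 2.21] times the 274 expected, and 408 of them lay in the Cd209a cluster described below. With the neutrophil cluster richest in Chil3 as the source, the wild-type value turned to 0.655 and the SCD value was 0.498. In the Naaa cluster, which is led by Naaa and the type 1 DC genes Xcr1 and Clec9a, Chil3 was at 7.36 CPM [4.50, 11.4] in 171 wild-type cells and 288 CPM [270, 307] in 234 SCD cells, a ratio of 39.1 [25.2, 64.4], with the panel at 2334 and 29131 CPM. The wild-type UMIs there were 0.340 [0.208, 0.525] and the SCD UMIs 0.943 times the expectation, and 12 of the 234 cells held 83.7% of them, up to 249 UMIs in 1 cell. In the Adam23 and Ccl5 clusters the SCD levels of 54.2 and 66.7 CPM were 1.06 and 1.05 times the expectation, and the wild-type UMIs were 1.14 [0.916, 1.39] and 0.647 [0.426, 0.942] times. Plasmacytoid DCs of the Siglech cluster were at 6.95 and 51.9 CPM, 1.15 times the expectation in each library. In the 644 SCD conventional DCs with under 1% panel UMIs, Chil3 was at 62.0 CPM and 1.46 times the expectation, beside 24.3 CPM and 3.39 times in 2526 wild-type cells.

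The Cd209a cluster, led by Cd209a and Clec10a, differed from the other conventional DCs in its wild-type Chil3. Chil3 was at 134 CPM [121, 148] in 257 wild-type cells, 4.82 [4.36, 5.31] times the expectation and at least 1.74 times over single panel genes, and at 100 CPM [85.7, 116] in 157 SCD cells, 1.63 [1.40, 1.89] times the expectation. In these SCD cells the value was 0.642 over Retnlg alone and 0.798 with the neutrophil cluster richest in Chil3 as the source, both below 1. With that source the wild-type value was 1.55. The ratio of SCD over wild-type was 0.747 [0.622, 0.894], on the opposite side of 1 from that of the other conventional DC clusters with 20 or more cells in each library. Of the wild-type cells 19.8% had a Chil3 UMI, and 13 cells held 68.9% of the UMIs. Monocyte genes were the second best match of this cluster, and 8.21% of its cells were called doublets, against at most 1.41% in the other conventional DC clusters. Without called doublets, Chil3 in resting wild-type conventional DCs of all clusters fell from 26.8 to 20.5 CPM. The level of the Cd209a cluster alone was not recomputed without them, and the part of the monocyte genes was not tested.

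Chil1 in conventional DCs was at 2.38 CPM [1.77, 3.12] in wild-type (52 UMIs) and between 16.9 and 23.5 CPM in SCD (148 UMIs), a ratio of 8.41 [6.09, 11.8], and 2.00 and 1.34 times the expectation. With the richest neutrophil cluster as the source the SCD value was 0.840. In 644 SCD cells with under 1% panel UMIs it was at 6.60 CPM, 1.79 times the expectation. In 2526 such wild-type cells it was at 1.95 CPM, 2.87 times the expectation. The log2 ratio was 0.74 in these cells, against 1.76 in all conventional DCs.

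Chil5 was above the expectation in conventional DCs and close to it in monocytes. It had 93 UMIs in wild-type conventional DCs where 1.68 were expected, and 40 in SCD where 9.62 were expected (55.5 [44.8, 68.0] and 4.16 [2.97, 5.66] times). In the Naaa cluster 47 wild-type UMIs lay in 32 of 171 cells (17.3 CPM [12.7, 23.0]) and 33 SCD UMIs in 27 of 234 cells (9.61 CPM [6.62, 13.5]), with at most 5 and 3 UMIs in a cell. This wild-type cluster held more Chil5 than Chil3 UMIs (47 against 20), whereas wild-type neutrophils held 258 against 42239. In SCD the Naaa cluster held 33 Chil5 against 989 Chil3 UMIs. The ratio of SCD over wild-type in the Naaa cluster was 0.556 [0.345, 0.886]. Other conventional DCs were lower, at 5.58 and 3.45 CPM in the Cd209a, 1.75 and 0.645 in the Adam23 and 0.773 and 0 in the Ccl5 cluster. Plasmacytoid DCs had 8 wild-type (1.11 CPM) and 30 SCD UMIs (7.74 CPM) in the Siglech cluster, the latter 22.7 [15.3, 32.4] times the expectation, and 16 and 29 UMIs (18.2 and 10.9 CPM) in the Ly6d cluster. The 8 wild-type UMIs of the Siglech cluster were at least 21.6 times the expectation over single panel genes, and with the richest neutrophil cluster as the source the wild-type and SCD values were 10.3 and 10.4 times. In the Ly6d cells Chil5 was 12.8 [7.31, 20.8] times the expectation in wild-type, with the panel at 25042 CPM, and 1.83 [1.23, 2.63] times in SCD, with the panel at 75565 CPM. With the richest neutrophil cluster as the source the Ly6d values were 4.38 and 0.836 times. All of these are low levels, and after thinning 1.76% [0.365, 5.07] of wild-type Naaa cells kept a Chil5 UMI.

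**Figure D4:**
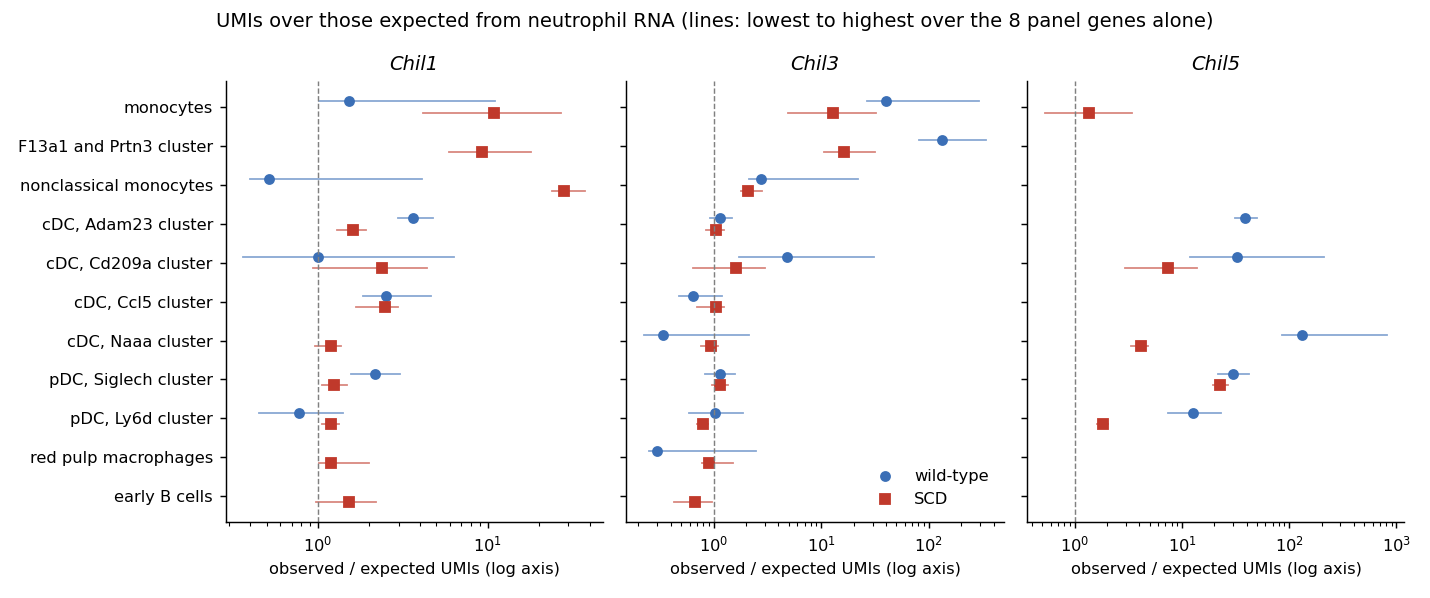
UMIs of each gene over those expected from neutrophil RNA of the same library (horizontal log axis, dashed line at 1), for classes with at least 5 UMIs; thin lines run from the lowest to the highest value over the 8 panel genes taken alone. Chil3 lies at 1.02 in SCD conventional DCs as a whole, with 1.63 in their Cd209a cluster. It lies at 0.792 in the SCD plasmacytoid DCs of the Ly6d cluster, and at 39.7 and 12.8 in monocytes. Chil1 lies at 10.9 in SCD monocytes, and Chil5 above 1 in most DC clusters.

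In dividing conventional DCs (128 wild-type and 28 SCD cells) Chil3 was at 9.38 CPM [4.85, 16.4] against 26.8 [24.6, 29.2] in resting ones in wild-type, and at 63.2 [40.9, 93.4] against 179 [169, 189] in SCD. The panel was lower in dividing cells too, at 664 against 1400 CPM in wild-type and 3471 against 17177 CPM in SCD. Of the 558 wild-type Chil3 UMIs in all conventional DCs, 408 lay in the Cd209a cluster. Of the 1297 SCD ones, 989 lay in the Naaa cluster. In the Adam23 cluster Chil3 was at 8.45 and 54.2 CPM, and in the Ccl5 cluster at 6.96 and 66.7 CPM. Resting and dividing levels were not computed within clusters, so no difference by division is read from them. Chil3 was 1.52 times the expectation in dividing and 2.07 times in resting wild-type cells, and 1.74 and 0.992 times in SCD. With the neutrophil cluster richest in Chil3 as the source, these values were 0.490 and 0.666 in wild-type. They were 0.850 and 0.485 in SCD, so all lay below 1. As a mean of per-cell CPM the SCD order turned, with 134 CPM in dividing and 124 CPM in resting cells. Their Chil5 was at 7.04 CPM [3.22, 13.4] against 3.98 [3.16, 4.95] in wild-type and at 10.1 [2.76, 25.9] against 5.02 [3.47, 7.01] in SCD, with intervals that overlapped.

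Of 6 genes for receptors and partners of these proteins, Il13ra2, a receptor of BRP-39, had no UMI in neutrophils, monocytes or conventional DCs. Its co-receptor gene Tmem219 was at 93.3 and 95.1 CPM in monocytes and at 59.6 and 66.1 CPM in conventional DCs. Cd44, a hyaluronan receptor, was at 993 and 364 CPM in neutrophils and 584 and 307 CPM in monocytes, and Lgals3 (galectin-3) at 1914 and 2511 CPM in monocytes. In neutrophils 0 of the 2 genes of this list that passed the minimum level were at a log2 ratio of 1 or more, and 1, Cd44, was at -1 or less, beside 1.76% and 19.8% of all neutrophil genes and with the different stage mixes described above. In monocytes none of 3 that passed was past either limit (0.961% and 1.74% of all genes), and in conventional DCs 1 of 3, Lgals3 (284 and 742 CPM), was at 1 or more (1.81% of all genes).

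Most genes known to accompany Chil3 in alternatively activated macrophages were below the minimum level. Of 11 such genes, 2 passed the minimum level in monocytes, Clec10a (102 and 101 CPM) and Stat6 (122 and 97.3 CPM), and neither reached a log2 ratio of 1 in either direction. Retnla, which encodes a secreted resistin-like protein, had no UMI in monocytes. In neutrophils Stat6 (136 and 57.1 CPM) and Il4ra (68.5 and 18.8 CPM) passed, both at -1 or less, as were 19.8% of all genes in this contrast of unlike stage mixes. In conventional DCs Clec10a was at 57.7 and 143 CPM, past 1 as 1.81% of all genes were, and Stat6 at 85.0 and 66.0 CPM. Of 9 granulocyte transcription factor genes, 5 passed in neutrophils, where Cebpe, required for specific granule genes, was at 220 and 421 CPM and Cebpb, the only one of the 5 past either limit, at 460 and 138 CPM. Within clusters Cebpe was at 679 and 689 CPM in Elane cells, 506 and 455 CPM in Ltf cells and 37.9 and 41.0 CPM in Il1b cells. In monocytes 7 passed and none was past either limit, and in conventional DCs 1 of 5 was, Irf8 (344 and 1072 CPM), a factor required for type 1 DCs, beside 1.81% of all genes. The mix of conventional DC clusters differed between the libraries: the Naaa cluster had 171 of 2547 wild-type and 234 of 703 SCD cells, and the Adam23 cluster 1373 and 209.

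The genes whose log2 CPM was most like that of a member were sought over 36 sums of 20 classes and 6847 genes, which share libraries and depth. For Chil1 they were Wfdc21 (Pearson r = 0.966), S100a9 (0.959), Rflnb (0.958), S100a8 (0.957) and Rab44 (0.956), of which Wfdc21, S100a8 and S100a9 are neutrophil granule or cytosol genes. For Chil3 they were Lbp (0.908), Serpinb1a (0.893), Galns (0.877), Rhou (0.877) and 1700020L24Rik (0.876). Serpinb1a, an inhibitor of neutrophil elastase, was at 781 and 935 CPM in Elane cells and 9.07 and 17.0 CPM in Il1b cells. For Chil5 they were Nt5e (0.874), Gpr27 (0.854), Thbs1 (0.848), Gm45137 (0.809) and Elovl7 (0.797). Nt5e, which encodes the ectonucleotidase CD73, was highest in the Mmp8 cluster as Chil5 was, at 80.5 and 72.1 CPM. The members resembled each other less than these genes did, with r = 0.671 between Chil1 and Chil3, 0.582 between Chil1 and Chil5 and 0.391 between Chil3 and Chil5.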

How the data were processed

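Spleen cells of 2 mice, 1 per genotype, were enriched for DCs and run as 1 droplet library each. Per the labels, the authors made the deposited counts by aligning reads to GRCm38.p6 and counting UMIs per gene and cell with Cell Ranger 4.0.0, without normalization (97880318 UMIs over 10845 wild-type and 189688217 over 13447 SCD cells). The submitters' notes also name R 4.4, Seurat 3.2.3 and Scanpy 1.6.0.

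From these counts, cells with 500 to 5000 genes, below 15% mitochondrial and below 30% ribosomal UMIs were retained, following the published methods (86.9% and 79.1%). Genes seen in at least 20 cells (14562) were scaled with scran 1.30.0 under R 4.3.3. Both libraries were clustered together on 1998 variable genes without the members (30 components, 15 neighbours, Leiden resolution 1) with scanpy 1.11.5, leidenalg 0.10.2 and igraph 0.11.9. Python 3.11.15 was used with scikit-learn 1.9.0, pandas 2.3.3, scipy 1.17.1, numpy 2.4.6 and, for figures, matplotlib 3.10.9. Scrublet called 358 and 196 cells doublets, which were kept.

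Clusters were named from marker lists. A cluster stayed unnamed with under 3 markers detected, a lead under 0.05 over the second class, a second class scoring 0.6 or more, 30% or more doublets, or 10 leading genes that held more markers of a different class. This left out the F13a1 and Prtn3 cluster and 5 others, among them a Thbs1 cluster with neutrophil genes (25 and 118 cells) and a mixed Ighg3 and Fn1 cluster (13 and 86). Rebuilt names may differ from those of the study.

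UMIs were summed per class and library, and 5 CPM were added before log2. A gene passed with at least 50 CPM and 20 UMIs in a library. Intervals were exact Poisson (levels), Clopper-Pearson (shares) and conditional binomial (ratios). Groups of a single sample allow no test, and cells are not replicates. At the depth of the monocytes 3 UMIs correspond to 0.508 CPM in wild-type and 0.266 CPM in SCD. The code for ratios was tested on simulated data. Members, lists, and naming limits were chosen with earlier results of these data known. Named genes were the members, 7 other family genes, 6 receptors and partners, 11 alternative activation genes, 9 transcription factors and the 5 genes most like each member. Alternatives covered pseudocount, scaling, filters, doublets, clustering and the source of free RNA.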

Additional observations from a re-analysis of the deposited data

Results flagged for a closer look

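Chil3 differed in direction between classes under the same contrast, and these differences were not tested. Its ratio of SCD over wild-type was 0.728 in the Mmp8 cluster of neutrophils and 6.66 in the Il1b cluster, and it was 0.902 in monocytes and 6.87 in conventional DCs. The SCD Chil3 UMIs of conventional DCs were 1.02 times those expected from neutrophil RNA. The ratio in plasmacytoid DCs of the Siglech cluster was 7.46, beside the 6.66 of the Il1b cluster. Chil5 stood at 0.734 [0.525, 1.05] in the Retnlg and 3.31 [0.565, 13.8] in the Il1b cluster, the latter from 8 and 3 UMIs. Both intervals held 1, so no difference in direction is read from them.

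Cells with over 5000 genes, left out by the study's filter, numbered 295 in wild-type and 1220 in SCD and held the members above the level of 3 UMIs. Chil3 was at 151 and 287 CPM in them, Chil1 at 3.70 and 19.4 CPM, and Chil5 at 1.55 and 1.20 CPM. The panel was at 4929 and 15812 CPM, and Chil3 was 3.31 and 1.73 times the expectation from neutrophil RNA. With the neutrophil cluster richest in Chil3 as the source it was 1.06 and 0.847 times.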

How the results depend on the processing

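No paired analysis was possible because there was a single library for each genotype, which also left no replicate to omit. Sparse counts limit Chil5 and wild-type Chil1 outside neutrophils. Of 77 alternative log2 ratios (SCD over wild-type), 43 stayed within their counting interval, 31 moved and 3 changed sign. The cause of these moves was not tested, except that the mix of clusters was itself what an alternative held. These alternatives with 1 mix, the panel limit of 1% and the added F13a1 and Prtn3 cluster were chosen after seeing the data.

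In neutrophils, with the wild-type mix of clusters in both libraries the log2 ratio was 0.31 for Chil1, -0.27 for Chil3 and 0.10 for Chil5, and with the SCD mix 0.12, -0.33 and -0.00358, so that Chil3 turned under both and Chil5 under the latter. Median-of-ratios scaling gave 1.06, 1.20 and 1.27, which put all 3 past 1. The mean of per-cell CPM gave 1.07, 2.09 and 1.75, and cells with at least 1000 genes gave 0.48, 0.39 and 0.59. Chil3 was at 0.78 without the mitochondrial and ribosomal filter, and Chil5 at 0.60 with a pseudocount of 20 CPM.

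In monocytes, Chil1 was at 2.05 with a pseudocount of 20 CPM and 3.92 with 1 CPM. Chil3 was at -0.07 with median-of-ratios scaling, -0.25 without the mitochondrial and ribosomal filter, -0.35 at Leiden resolution 2 and -0.40 with the F13a1 and Prtn3 cluster added. A dividing cluster led by F13a1 and Fn1 was also named monocyte at resolution 2 (44 wild-type and 372 SCD cells). The same held without the filter (37 and 329 cells), so these settings are not separate from the added cluster. In conventional DCs, pseudocounts of 20 and 1 CPM gave 0.84 and 2.64 for Chil1 and 2.10 and 2.73 for Chil3. Leiden resolution 2 gave 1.08 and 1.89, and cells with under 1% panel UMIs 0.74 and 1.20. Chil3 there was at 2.85 without called doublets, 2.31 as a mean of per-cell CPM and 3.86 without the mitochondrial and ribosomal filter. Without that filter the cluster led by Cd209a and Clec10a (282 wild-type and 203 SCD cells) stayed unnamed. It was thus left out of the conventional DCs, so the 3.86 is not over the same clusters as the main value.

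Of UMIs over expectation, 12 of 50 alternatives stayed within their interval. In monocytes, single panel genes gave 4.15 to 27.2 for SCD Chil1, up to 11.1 for wild-type Chil1, and 26.4 to 291 (wild-type) and 4.88 to 32.0 (SCD) for Chil3. With the richest neutrophil cluster as the source SCD Chil1 was at 6.82 and Chil3 at 12.8 and 6.25. Without doublets the values were 13.3, 135 and 16.1, and in cells with under 1% panel UMIs 22.4, 211 and 28.4. In conventional DCs, single panel genes gave 1.17 to 4.61 (wild-type) and 1.01 to 1.59 (SCD) for Chil1, 1.19 to 4.69 and 0.768 to 1.21 for Chil3, and 32.4 to 128 for wild-type Chil5. With the richest cluster as the source, SCD Chil1 turned to 0.840 and wild-type Chil3 to 0.655, SCD Chil3 was at 0.498, and Chil5 at 19.0 and 1.90. Cells with under 1% panel UMIs gave 2.87 and 1.79 for Chil1, 3.39 and 1.46 for Chil3, and 91.3 and 15.1 for Chil5, which was at 70.8 in wild-type without doublets.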
